A study of Mus musculus with 8 samples.

Results

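The regions described here are open-chromatin regions of mouse liver that lie far from the ends of coding genes and were called as peaks in every library of the study. A region of the deposited consensus table was kept if peaks of all 8 libraries shared 1 bp or more with it and if it lay over 5 kb from both ends of every protein-coding gene in the RefSeq table of GRCm38.p6, the assembly behind mm10. This left 4280 of 49587 consensus regions (8.63%), or 38.0% of the 11258 regions called in all 8 libraries. The other 6978 of these lay within 5 kb of a gene end and are called gene-end regions below. Chromatin was profiled by ATAC-seq, in which a transposase cuts and tags accessible DNA, in liver of 9-week-old male C57BL/6 mice, all fasted for 24 h. There were 2 libraries for each of 4 genotypes: wild type (WT), a liver knockout of Cpt2 (Cpt2 L-/-), a Ppara knockout (Ppara -/-) and a knockout of both (Cpt2 L-/- ; Ppara -/-), whose loss of Ppara is whole-body per its label. The driver of the liver deletion is not given in the sources used here, and the labels do not say whether the libraries of a genotype came from separate animals, so p-values measure only the spread between these libraries, which may be technical. WT and Cpt2 L-/- are together called Ppara-intact, the other two genotypes Ppara-null; Cpt2-intact (WT and Ppara -/-) and Cpt2-null follow the same pattern.

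Accessible DNA away from gene ends is where many enhancers lie, the stretches to which transcription factors bind to raise transcription of a gene that can be some distance off, and it also holds insulators and start sites of noncoding RNAs and of alternative transcripts. PPARα, the product of Ppara, is a nuclear receptor that binds DNA together with RXR and, in the fasted liver, drives genes of fatty acid oxidation and ketone body synthesis. CPT2 is the inner-membrane carnitine palmitoyltransferase that long-chain fatty acids need to enter mitochondrial oxidation.

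The peak lists hold positions and peak scores but no sequence, so bases are shown only where a region held a RefSeq promoter window, which runs from 250 bases before to 50 bases after a transcript start. Of the 4280 distal regions, 438 (10.2%) overlapped such a window: 270 overlapped one of a coding gene, 188 one of a lncRNA, and 20 both kinds. The coding-gene starts are internal ones, since both outer ends of each gene are over 5 kb away. The first 4 windows below belong to regions that changed with Ppara status (Fam222b and Gm31623 higher in Ppara-null libraries, Iffo2 and Rbm47 lower), and the last 2 to regions that ranked high in every library (Chaserr and Gm30117). They are printed 5′ to 3′ on the strand of the gene, from RefSeq on GRCm38.p6 (mm10). Capitals mark a match to 1 of the searched motifs, on either strand: the AP-1 motif TGANTCA, the FOXA motif TGTTTAC, the C/EBP motifs TTGCGCAA, TTGCGTAA, TTGCACAA and TTGCATAA, the HNF4A motif CAAAGTCCA, the ERR motif TCAAGGTCA and the GC box GGGGCGGGG.
Fam222b (chr11:78115376-78115675, plus strand): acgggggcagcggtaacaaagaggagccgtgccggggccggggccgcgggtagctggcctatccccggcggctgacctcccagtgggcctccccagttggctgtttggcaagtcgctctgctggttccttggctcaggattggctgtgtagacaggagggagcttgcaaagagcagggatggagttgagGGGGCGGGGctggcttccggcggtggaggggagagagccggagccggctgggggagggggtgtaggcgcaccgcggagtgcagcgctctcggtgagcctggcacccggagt
Gm31623 (chr12:3894637-3894936, minus strand): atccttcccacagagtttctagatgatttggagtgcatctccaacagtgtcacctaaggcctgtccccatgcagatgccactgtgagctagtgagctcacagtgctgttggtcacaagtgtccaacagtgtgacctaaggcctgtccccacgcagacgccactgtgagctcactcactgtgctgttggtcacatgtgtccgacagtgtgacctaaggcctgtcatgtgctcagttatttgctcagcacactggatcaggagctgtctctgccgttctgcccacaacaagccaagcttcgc
Iffo2 (chr4:139574470-139574769, plus strand): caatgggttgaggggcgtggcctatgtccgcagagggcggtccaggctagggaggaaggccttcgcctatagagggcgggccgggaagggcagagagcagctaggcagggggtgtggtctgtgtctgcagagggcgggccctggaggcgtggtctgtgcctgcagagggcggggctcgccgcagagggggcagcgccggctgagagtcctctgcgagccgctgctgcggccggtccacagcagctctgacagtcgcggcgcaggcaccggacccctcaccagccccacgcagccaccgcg
Rbm47 (chr5:66098130-66098429, minus strand): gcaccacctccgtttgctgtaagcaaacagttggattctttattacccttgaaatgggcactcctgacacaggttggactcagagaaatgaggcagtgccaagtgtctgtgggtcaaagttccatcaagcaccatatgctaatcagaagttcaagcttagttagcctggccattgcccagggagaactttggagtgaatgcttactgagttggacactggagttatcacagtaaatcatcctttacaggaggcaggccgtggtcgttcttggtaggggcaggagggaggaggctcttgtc
Chaserr (chr7:73558346-73558645, minus strand): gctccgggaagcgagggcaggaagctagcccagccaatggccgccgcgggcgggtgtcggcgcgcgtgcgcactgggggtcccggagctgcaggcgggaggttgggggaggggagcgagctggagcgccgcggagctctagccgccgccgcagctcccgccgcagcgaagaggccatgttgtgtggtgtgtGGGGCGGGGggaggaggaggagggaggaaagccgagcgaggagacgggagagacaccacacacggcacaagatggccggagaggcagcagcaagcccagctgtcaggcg
Gm30117 (chr17:85928552-85928851, minus strand): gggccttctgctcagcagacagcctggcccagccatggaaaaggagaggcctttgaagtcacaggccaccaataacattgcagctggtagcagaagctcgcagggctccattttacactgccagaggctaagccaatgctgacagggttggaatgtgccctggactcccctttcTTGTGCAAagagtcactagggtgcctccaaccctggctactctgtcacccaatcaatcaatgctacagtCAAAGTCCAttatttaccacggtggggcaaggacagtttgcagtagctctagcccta
The capitals in Fam222b and Chaserr are a GC box, and those in Gm30117 a C/EBP match followed by an HNF4A match. None of the searched motifs stands in the windows of Gm31623, Iffo2 and Rbm47. Among the 352 windows that lay wholly inside a distal region, 22.2% held the GC box, against 11.4% of all 32851 windows of the table. AP-1 matches were in 6.53% against 7.81%, FOXA in 3.13% against 3.65%, C/EBP in 2.84% against 2.08%, HNF4A in 1.14% against 0.475% and the ERR motif in 0.568% against 0.423%. Median GC content was 62.0% in these 352 windows and 52.7% in all windows. By kind, the GC box was in 24.2% of coding-gene windows inside a distal region, against 15.4% of all coding-gene windows. For lncRNA windows it was 18.8% against 4.28%. All windows include those outside open regions, and windows in gene-end regions were not counted apart. Whether these shares are particular to distal regions was therefore not tested. The searched motifs do not overlap one another in the printed windows, and a match describes letters, not a bound site.

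Of small RNA genes, 21 of the 1005 miRNA hairpins in the RefSeq table were within 2 kb of 16 distal regions. The hairpins include the Mir17 cluster on chromosome 14, of which 6 hairpins lay 1160 to 1916 bp from 1 region of 2178 bp, and Mir22 and Mir148a, which are abundant liver miRNAs. The mature sequences of these are shown because shared seeds group them; capitals mark the seed, bases 2 to 8, and coordinates are on GRCm38.p6.
miR-17-5p (chr14:115043684-115043706, plus strand): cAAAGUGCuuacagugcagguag
miR-20a-5p (chr14:115044183-115044205, plus strand): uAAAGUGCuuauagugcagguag
miR-19a-3p (chr14:115044048-115044070, plus strand): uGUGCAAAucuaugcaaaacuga
miR-19b-3p (chr14:115044358-115044380, plus strand): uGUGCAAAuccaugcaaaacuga
miR-22-3p (chr11:75463772-75463793, plus strand): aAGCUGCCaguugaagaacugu
miR-148a-3p (chr6:51269829-51269850, minus strand): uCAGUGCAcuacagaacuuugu
miR-17-5p and miR-20a-5p share the seed AAAGUGC, miR-19a-3p and miR-19b-3p share GUGCAAA, and the seeds of miR-22-3p and miR-148a-3p differ from both.

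The distal regions were narrower and more sharply placed than the gene-end ones. Their median width was 509 bp (quartiles 443 and 629, range 312 to 2734), against 750 bp for gene-end regions, and 168 of them (3.93%) were wider than 1 kb against 21.0% of gene-end regions. Distal regions called in 1 to 7 libraries had a median of 327 bp. If a consensus region is the union of its peaks, its width can grow with the number of libraries that call it. The part of this in the widths was not tested. Within a distal region, 4043 of 4280 (94.5%) had exactly 1 peak in each library, against 81.4% of gene-end regions. In these 4043, the summits of the 8 libraries spanned a median of 82 bp (quartiles 54 and 122), against 107 bp at gene ends. The span was within 100 bp in 63.6% of distal and 46.9% of gene-end regions.

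**Figure D1:**
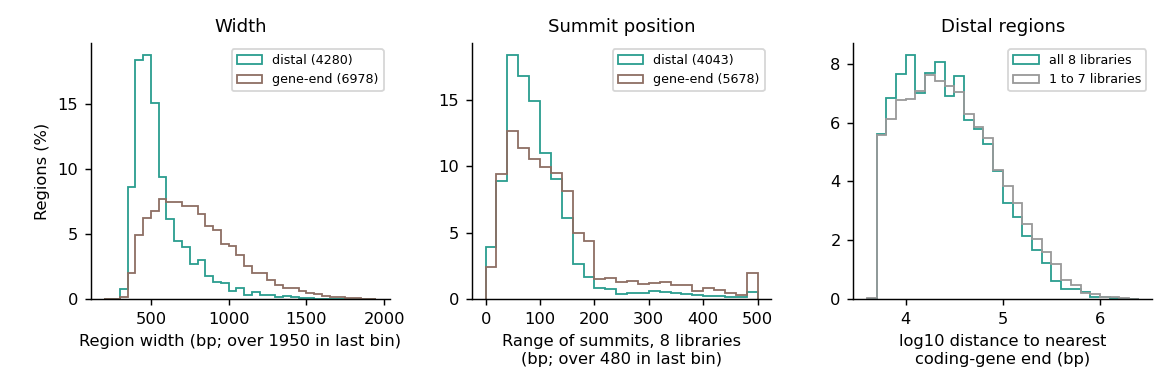
Distributions of region width (left, bp), of the range of peak summits over the 8 libraries in regions with 1 peak in each (middle, bp) and of the distance to the nearest coding-gene end (right, log10 of bp), as a percentage of regions. Distal regions called in all libraries (green) have a median width of 509 bp and a median summit range of 82 bp, to the left of the gene-end regions (brown, 750 and 107 bp); on the right they nearly overlie the distal regions called in 1 to 7 libraries (grey).

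The tightest summits were those of Slc39a11 (a zinc transporter) on chromosome 11 and Cox18 on chromosome 5, each with all 8 summits within 1 bp, and Fbln1 (fibulin, an extracellular matrix protein) on chromosome 15 within 2 bp. These regions were 421, 499 and 377 bp wide. The largest ranges were 804 bp in the region near Phb on chromosome 11, 718 bp near Fchsd2 on chromosome 7 and 665 bp inside Nfkbiz on chromosome 16, in regions 1003 to 1174 bp wide. A range of that size in a region with 1 peak per library means that the strongest point of the peak lay at different places along it in different libraries.

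Being called everywhere was less frequent far from gene ends: 14.4% of all 29798 distal regions were called in all 8 libraries, against 35.3% of the 19789 gene-end regions. Of the 4280, 2461 (57.5%) lay inside a coding gene and 1819 (42.5%) outside, against 54.8% inside for distal regions called in 1 to 7 libraries. The RefSeq table gives no exons, so introns and exons were not separated. The median distance to a coding-gene end was 24420 bp. By distance, 861 regions lay between 5 and 10 kb, 2208 between 10 and 50 kb, 660 between 50 and 100 kb, 517 between 100 and 500 kb and 34 beyond 500 kb. At the threshold of the rule, the nearest region kept was 5006 bp and the farthest region left out 5000 bp from a gene end, with 93 regions within 500 bp inside the limit and 118 within 500 bp outside it. The farthest lay near Cntnap5b on chromosome 1, 2137488 bp from that gene, followed by regions near Tenm2 (1381607 bp), Pcdh20 (1327784 bp) and Gpc5 (1157991 bp). Across the autosomes 12.9% to 15.9% of distal regions were called in all libraries, against 9.43% on X (33 regions) and 4 of 13 on Y.

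The nearest coding genes numbered 2874, of which 2014 had a single region and 52 had 5 or more, together holding 319 regions. Rreb1, a zinc finger transcription factor, had 11. Myc, the proto-oncogene transcription factor, had 10, all outside the gene and 53389 to 722044 bp from it. Ptpn1, a tyrosine phosphatase that acts on the insulin receptor, Tns1, which links actin to adhesion sites, and Zmiz1, a transcriptional coregulator, had 9 each. Prkce and Rab11fip4 had 8, and Dio3, Irs2, Mical3, Mtss1, Nectin1, Osbpl1a, Ppargc1a and Sox5 had 7. Irs2 is an insulin receptor substrate and Ppargc1a a coactivator of PPARα and of gluconeogenic genes. Nearness was the only tie used between a region and a gene, and large genes or genes beside deserts gather more regions by it.

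Most of the regions stood alone. Joined wherever the gap was at most 12500 bp, they formed 3855 groups, of which 3487 were single regions, 324 pairs and 44 groups of 3 or more with 145 regions (3.39%). The median gap from a region to the next was 66807 bp. The largest group held 9 regions in 33040 bp on chromosome 2 (167828154 to 167861193), 69557 to 102106 bp from Ptpn1, and took in 9 of the 12 consensus regions there. Its regions ranked low: their median percentile, defined in the next paragraph, was 14.9 to 39.9 over the 8 libraries. The next were 5 regions near Eif1a and 5 inside Atp8b1, an aminophospholipid flippase of the bile canaliculus, both on chromosome 18, and 4 inside Hnf4a on chromosome 2 (163539367 to 163555742). HNF4α is a nuclear receptor that maintains hepatocyte identity, and the median percentile of its 4 regions was 27.1 to 66.3 over the libraries. Por (the electron donor of the cytochromes P450) and Zfpm1 (a GATA cofactor) also had 4 each.

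The strength of a region in a library was taken as the −log10 p-value that the authors' peak caller gave its strongest peak, turned into a percentile from 0 to 100. Because the lists ran from 18132 to 39296 peaks, the percentile was taken among the same 11258 regions in every library, which is called the shared percentile; the percentile in a library's own whole list is given only as a description. Ranking fixes the mean of all 11258 regions in each library, so any change in percentile is relative to the other regions. In their own lists the distal regions stood above the middle, with a median full-list percentile of 75.7 and 81.3 in the WT libraries, 83.6 and 82.5 in Cpt2 L-/-, 69.0 and 59.8 in Ppara -/- and 74.8 and 67.1 in Cpt2 L-/- ; Ppara -/-. The Ppara-null lists were shorter, with 18132 to 22715 peaks against 28733 to 39296, so a region called everywhere made up more of them: distal regions took 11.1% to 15.1% of the peaks of Ppara-intact lists and 19.2% to 24.0% of the Ppara-null ones. Peaks in them were also narrower there, with a median of 335 to 380 bp against 414 to 457 bp. The part of list length and peak width in the differences by Ppara status was not tested.

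At the top stood the same few regions in every library. The 6 with the highest mean full-list percentile (99.96 to 99.99) lay near Cspg5 and Alkbh8 on chromosome 9, Tcp10c on 17, Tra2a on 6 and Csf2ra on 19 and inside Il1rapl1 on X. They were only 375 to 810 bp wide and their summits spanned 4 to 13 bp. The −log10 p of the Cspg5 region ran from 241 in a Ppara -/- library to 1770 in a WT library, yet its shared percentile was 99.96 or more in each. At the bottom stood regions near Btbd35f29 on X and inside Slc12a8 on 16, with mean full-list percentiles of 13.8 and 16.8. The Slc12a8 region, 373 bp wide, had a −log10 p of 10.6 to 19.5 over the libraries. The 4 widest regions differed in strength. The widest, 2734 bp near Gm52481 on Y, had shared percentiles of 1.48 to 3.02 with Ppara and 64.5 to 80.9 without. The next, 2178 bp near Gpc5 beside the Mir17 cluster, was at 4.38 to 28.0 over the 8 libraries. That of 1923 bp inside Cpeb2 was at 38.6 to 81.4, and that of 1758 bp near Gm39469 at 70.2 to 99.7.

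In bulk liver, a weaker region in all cells and a region open in fewer cells cannot be told apart. Against the marker genes set for each cell type, all 8 hepatocyte markers had a region called in all libraries as their nearest gene, as had 3 of 8 endothelial markers and 1 of 8 cholangiocyte markers, while none of the 8 Kupffer cell, 8 stellate or 7 lymphocyte markers in the gene table did. Distal regions lay nearest to 4 hepatocyte markers (11 regions), 2 endothelial markers (3 regions) and 1 cholangiocyte marker (1 region). The region inside Stab2, a scavenger receptor of sinusoidal endothelium, had shared percentiles of 47.0, 26.4, 21.9 and 50.8 in Ppara-intact and 90.6, 58.7, 73.6 and 71.3 in Ppara-null libraries, with no overlap, but its change of 37.0 ± 11.9 points (SE) did not pass the test (adjusted p = 0.101). The part of cell composition in the results below was not tested.

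The first comparison by genotype concerns the distal regions as a whole. Their median shared percentile was 44.6 and 46.5 in the WT libraries, 49.1 and 50.8 in Cpt2 L-/-, 48.2 and 41.4 in Ppara -/- and 53.8 and 53.4 in Cpt2 L-/- ; Ppara -/-. All 4 Cpt2-null libraries stood above all 4 Cpt2-intact ones, with 51.8 ± 2.22 (SD, n = 4) against 45.2 ± 2.91 (SD, n = 4), a difference of 6.61 points. No p is given, since the regions were chosen with earlier results known. The gap between the groups was small, the lowest Cpt2-null library being at 49.1 and the highest Cpt2-intact one at 48.2. Ppara status gave no such order, with 49.2 ± 5.79 against 47.8 ± 2.74 (SD, n = 4 each). The gene-end regions are the remainder of the same ranking and moved the other way, from 54.1 and 52.2 in WT to 47.3 and 47.9 in Cpt2 L-/- ; Ppara -/-.

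The order by Cpt2 status was seen in the 3842 distal regions without a promoter window, at 44.0, 46.2, 48.0 and 40.6 in the Cpt2-intact libraries and 49.6, 50.7, 54.7 and 53.9 in the Cpt2-null ones. The 438 with a promoter window were at 50.1, 50.1, 50.1 and 53.7 against 45.9, 51.5, 47.4 and 47.6, where the groups overlapped. These 438 were also wider, at a median of 703 bp against 500 bp. The difference between both kinds of region was not tested.

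**Figure D2:**
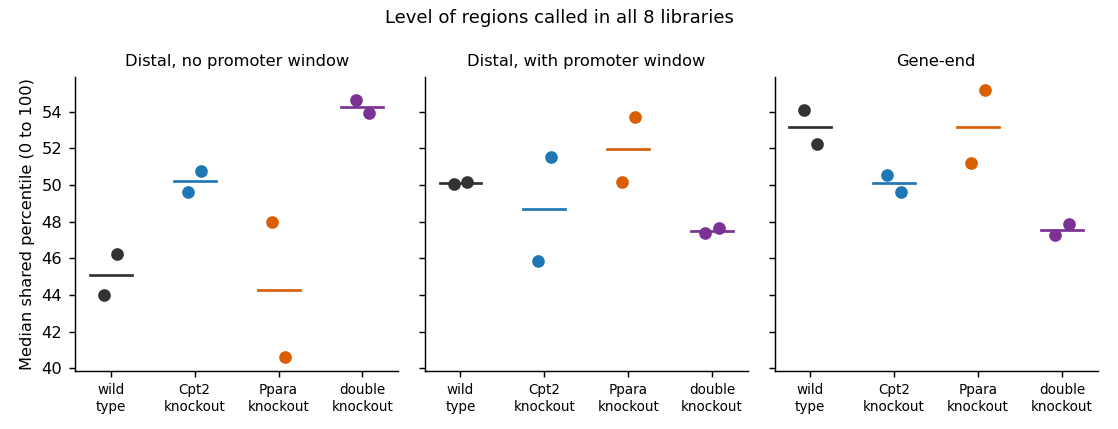
Median shared percentile (0 to 100, axis not from 0) of regions called in all 8 libraries, for 3842 distal regions without a promoter window, 438 with one and 6978 gene-end regions; each point is a library and each line the mean of 2. Cpt2 knockout and double knockout libraries lie at 49.6 to 54.7 in the left panel, above the 40.6 to 48.0 of the other libraries, and the order is not seen in the middle panel.

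Libraries ranked the distal regions less alike than the gene-end regions. Over the 4280 regions, Spearman's correlation between 2 libraries of a genotype was 0.611 to 0.833 (mean of 4 pairs 0.744), and between libraries of different Ppara status 0.397 to 0.628 (mean of 16 pairs 0.533). At gene ends the same means were 0.800 and 0.704. These are descriptions over regions that share their libraries. The lowest correlation within a genotype was that of the 2 Ppara -/- libraries.

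The second comparison asks which single regions changed their place with Ppara status. By limma over all 11258 regions, 251 of the 4280 distal regions (5.86%) passed an adjusted p of 0.05, 179 higher and 72 lower in Ppara-null libraries; over all 11258 regions 3.8% were called, 2.34% higher and 1.47% lower. Gene-end regions had 84 higher and 93 lower calls of 6978. Shared percentiles of the 2 groups did not overlap in 413 distal regions that were higher (9.65%, against 6.82% of all 11258) and in 240 that were lower (5.61%, against 5.77%). The median change over all 4280 was 0.61 points, and −0.41 over the 11258. Ranked among the distal regions alone, where no gene-end region takes part, the split was 191 higher and 141 lower (57.5% higher, against 71.3%). The number of calls depended on single libraries and on the score: it was 0 without the second WT library, 28 without the second library of Cpt2 L-/- ; Ppara -/-, and 8 when regions were ranked by the deposited fold. The 4 Ppara-intact libraries carry the numbers 441, 443, 446 and 4717 in their peak names and the Ppara-null ones 6831 to 6834; if these mark runs or batches, they cannot be told apart from Ppara status.

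**Figure D3:**
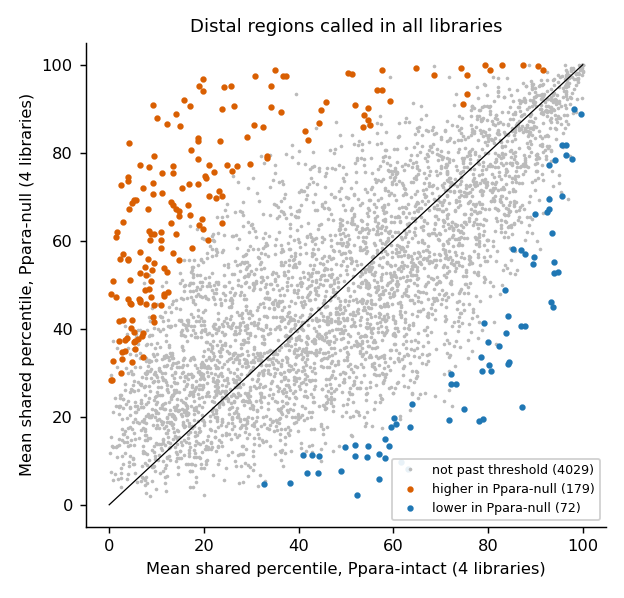
Mean shared percentile of each of the 4280 distal regions in the 4 Ppara-intact (x) and 4 Ppara-null libraries (y), with the line of equality. The 179 regions called higher (orange) mostly lie at the left, at a median of 13.2 on x and 69.3 on y; the 72 called lower (blue) lie at a median of 79.5 on x and 31.1 on y.

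The largest rise was that of a region inside Ppp1r9a (neurabin, an actin-binding scaffold) on chromosome 6 (4923796 to 4924261). Its shared percentile was 13.7 and 0.262 in WT, 12.6 and 10.7 in Cpt2 L-/-, 95.2 and 88.2 in Ppara -/- and 82.3 and 97.8 in Cpt2 L-/- ; Ppara -/-. The 4 Ppara-null libraries lay far above the others, by 81.5 ± 10.1 points (SE, limma adjusted p = 0.0131). The deposited fold of this region was 5.64 to 10.5 with Ppara and 10.8 to 16.3 without.

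A region inside Ksr1, a scaffold of the MAP kinase cascade, on chromosome 11 was at 8.05 and 1.31 in WT, 6.12 and 1.43 in Cpt2 L-/-, 66.3 and 85.02 in Ppara -/- and 84.99 and 92.1 in Cpt2 L-/- ; Ppara -/-, a rise of 77.9 ± 9.72 points. A region inside App, which encodes the amyloid precursor protein, on chromosome 16 was at 18.9, 0.697, 13.7 and 30.1 in Ppara-intact libraries and within 90.9 to 93.0 in all Ppara-null ones. In both the groups lay far apart, and the spread within Ppara-null libraries was smaller for App (SD 0.895 points) than for Ksr1 (SD 11.1). The other large rises were near Samd9l, an interferon-induced gene, on chromosome 6 (77.6 ± 10.9), inside Mamdc2 on 19 (76.9 ± 11.9), near Ktn1 (kinectin) on 14 (76.2 ± 11.7), inside Mindy2, a deubiquitinase, on 9 (74.7 ± 11.5) and near Sfi1, a centrosome gene, on 11 (74.4 ± 9.81). In Mamdc2, Ktn1 and Mindy2 the first WT library, at 42.7, 52.1 and 42.0, stood above the second at 2.49, 7.52 and 3.85. The Sfi1 region was 1382 bp wide and the other regions 357 to 539 bp.

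The Sfi1 region shows how the scores can part. Its shared percentile by −log10 p was 18.7, 9.56, 6.13 and 14.3 in the Ppara-intact libraries and within 83.1 to 89.9 in the others, while its deposited fold ran from 4.06 to 4.65 with Ppara and from 3.93 to 4.41 without. Ranked by fold its change was 3.06 points (adjusted p = 0.45). The widest region, near Gm52481 on Y, did the same, with a rise of 70.2 ± 8.64 points by −log10 p and 6.86 by fold.

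The largest fall was inside Slco2b1, an organic anion transporter of the hepatocyte membrane, on chromosome 7 (99664525 to 99665135). Its shared percentile was 76.7 and 90.7 in WT, 94.6 and 86.4 in Cpt2 L-/-, 3.5 and 42.8 in Ppara -/- and 34.6 and 8.08 in Cpt2 L-/- ; Ppara -/-, a change of −64.9 ± 12.1 points (SE, limma adjusted p = 0.0204). Its Ppara-null libraries were low but spread widely. The deposited fold was 9.82 to 14.1 against 4.18 to 5.55.

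Other named falls were inside Spata13, a guanine nucleotide exchange factor, on chromosome 14 (−59.4 ± 9.73), inside Rnf24 on 2 (−55.0 ± 9.94), inside Fgd6 on 10 (−53.2 ± 10.4), near Klf11, a Krüppel-like transcription factor, on 12 (−52.4 ± 11.9), near Pik3r1, the regulatory subunit of phosphoinositide 3-kinase, on 13 (−52.3 ± 9.77) and at the internal start of Iffo2 on 4 (−51.9 ± 10.5). In Rnf24 the Ppara-null libraries were at 4.52 to 17.1 and the Ppara-intact ones at 39.6 to 74.6. In Iffo2, whose sequence is printed above, they were at 64.5 and 38.0 in Ppara -/- and 22.0 and 5.59 in Cpt2 L-/- ; Ppara -/-, all below the 72.2 to 91.0 of the Ppara-intact libraries. Ranked by fold, a second score of the same peaks, all 16 named changes kept their direction and 1 of the 16 passed 0.05. The groups did not overlap in any of the 16, so leaving out a library could not turn a direction. With each library left out in turn, the rises passed in 6 or 7 of 8 fits and the falls in 1 to 5.

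**Figure D4:**
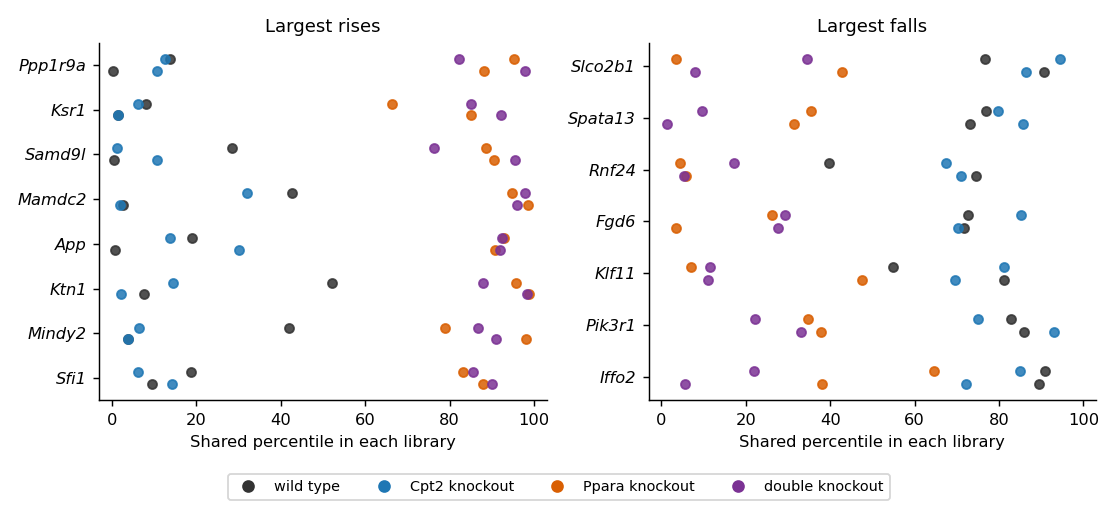
Shared percentile in each library (points, coloured by genotype) of the regions with the largest rises (left) and falls (right) among those past an adjusted p of 0.05, named by nearest coding gene. In every region shown, the 4 Ppara-null libraries lie on one side of the 4 Ppara-intact libraries.

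Regions called higher and lower differed in shape and rank. The 179 higher ones had a median width of 435 bp and the 72 lower ones 558.5 bp, against 511 bp for the 4029 others. In the Ppara-intact libraries the former had a median shared percentile of 13.2 and the latter of 79.5, and in the Ppara-null libraries 69.3 and 31.1. The test acts on the same percentiles, so these levels describe the calls. Summit position and nearest gene did not enter it directly. Summits spanned a median of 71 bp in the higher and 105 bp in the lower regions. Peaks differed in width too, with medians of 356 and 509 bp in Ppara-intact and 372 and 344 bp in Ppara-null libraries. A wider peak leaves more room for summits to spread, and the part of width in the summit spans was not tested. Inside a gene lay 96 of 179 and 36 of 72, against 57.8% of the others. By the rank of fold, 179 of 179 and 71 of 72 changed in the same direction. The nearest genes numbered 169 for the higher and 68 for the lower regions.

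Over all 4280 distal regions, 4.18% were called higher and 1.68% lower. Several of the higher regions lay close to the assembled start of a chromosome. Of 28 distal regions that start below 3.5 Mb on 13 chromosomes other than Y, 8 were called higher and 0 lower, with a median change of 12.9 points; of the 4 regions on Y, 3 were called higher. The regions near Samd9l (3050373 on chromosome 6), Sfi1 (3101139 on 11) and Vmn1r2 (3050013 and 3067493 on chromosome 4) and 2 near Olfr161 on 16 were among them. Ranked by fold, the median change was 3.29 points in the 28 and 6.96 in the 4. This position was looked at after the values were seen, and how reads that fit several places were handled is not given in the sources used here, so its part in these calls was not tested. The 4248 remaining regions held 168 of the higher and all 72 of the lower calls.

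Known PPARα target genes were looked at by nearness. Of 40 genes of the list, 8 were the nearest gene of a distal region, as were 2874 of all 21900 coding genes. They had 12 regions, of which 1 was called higher and 1 lower, beside 4.18% higher and 1.68% lower over all 4280. The median change of the 12 was −1.80 points, against 0.61 for all 4280. With counts this small, none of the gene lists below is read as differing from all regions. The higher one lies inside Acsl1, the long-chain acyl-CoA synthetase that activates fatty acids, on chromosome 8 (46529488 to 46530019), at 2.7, 0.777, 6.79 and 5.28 in Ppara-intact and 71.1, 70.8, 91.7 and 64.5 in Ppara-null libraries. Its rise of 70.7 ± 9.63 points (adjusted p = 0.0131) passed by fold as well, at 70.2 points (adjusted p = 0.0471). The other 4 Acsl1 regions did not pass: 3 of them had changes of 18.8, 22.5 and 26.4 points, and the one 83503 bp away had −35.2. The regions of Cpt1a, Acadm and Decr1 (enzymes of mitochondrial fatty acid oxidation), Creb3l3, Fabp1 and Abcd3 had changes from −30.5 to 11.1 points, with no call.

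Hepatocyte transcription factors had distal regions at 21 of 26 genes, 52 regions in all, of which 0 were called, beside 5.86% of all 4280. There were 6 each at Hnf4a and Nfia, 5 each at Rxra and Nfib and 3 each at Foxa2, Cebpb and Zbtb20, and the median change was −5.44 points. The largest change was near Onecut1, a homeodomain factor of liver development, at 81.4, 76.1, 74.9 and 94.3 in Ppara-intact and 37.6, 26.1, 63.0 and 19.5 in Ppara-null libraries; the groups did not overlap (adjusted p = 0.0556). The 4 regions inside Hnf4a had changes of 11.3, 2.11, −9.04 and 11.5 points and the 2 outside it −27.6 and −25.3 (adjusted p = 0.14 and 0.191), none of which passed. In each of these 2 both Ppara -/- libraries stood below the other 6.

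Genes of the glucocorticoid and fasting response had 41 regions at 14 of 20 genes, with 1 higher and 1 lower call, beside 5.86% of all 4280, and a median change of −2.26. The higher one lay inside Fkbp5, a co-chaperone of the glucocorticoid receptor, at 12.6, 1.82, 3.77 and 3.02 against 39.0, 34.3, 41.4 and 32.8 (31.6 ± 6.72 points, adjusted p = 0.0315). The lower one, 1212 bp wide, lay 250366 bp from Foxo1, a transcription factor of gluconeogenesis, at 75.9, 71.5, 73.7 and 67.3 against 11.4, 8.83, 53.7 and 36.2 (adjusted p = 0.0379). With each library left out in turn the Fkbp5 call passed in 2 of 8 fits and the Foxo1 call in 1 of 8, and ranked by fold their adjusted p was 0.0565 and 0.0979. None of the 7 regions at Ppargc1a or of the 7 at Irs2 passed.

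The remaining lists had 0 or 1 call each, in 9 to 28 regions, beside 5.86% of all 4280. Clock genes had 27 regions at 10 of 18 genes and 1 higher call, near Bhlhe40, a repressor within the clock, at 25.3, 7.29, 34.7 and 11.8 against 58.6, 48.7, 66.0 and 77.6 (adjusted p = 0.0438). That call passed in 0 of 8 fits that leave out a library, and its adjusted p by fold was 0.134. Genes of insulin and growth signalling had 28 regions at 13 of 19 genes and 1 higher call, inside Socs2, a suppressor of growth hormone signalling, which rose by 46.2 ± 8.53 points (adjusted p = 0.0204, and 0.0732 by fold) and passed in 3 of 8 such fits. Lipid synthesis genes had 17 regions at 12 of 21 genes and no call, with a median of −3.29; the largest change was near Insig1, which holds SREBP in the endoplasmic reticulum, at −41.2 ± 11.1 points (adjusted p = 0.0631). Secreted liver proteins had 9 regions at 7 of 29 genes in the table, with a median change of 1.93 points and 1 lower call. That region lay 10457 bp from Alb, at 99.5, 99.8, 99.8 and 99.4 in Ppara-intact, 82.9 and 77.3 in Ppara -/- and 98.6 and 96.0 in Cpt2 L-/- ; Ppara -/- libraries. Its change was −10.9 ± 1.94 points (limma adjusted p = 0.0194, and 0.0878 by fold), and it passed in 3 of 8 such fits. The Ppara-intact libraries stood near the top of the scale, where ranks can hardly spread. The fall was mostly in the Ppara -/- libraries, while those of Cpt2 L-/- ; Ppara -/- stayed close to the Ppara-intact ones. Of the other Alb regions, the one 21286 bp away had the larger change, at −40.9 ± 10.3 points, which did not pass (adjusted p = 0.0523).

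At a few genes at least 2 regions were called in one direction. These genes were chosen by that count after the calls were known, and are described without a test. Inside Tmem267 on chromosome 13, 3 regions in 4659 bp were called higher, with changes of 48.8, 54.5 and 52.2 points. Ranked by fold these changes were 7.18, 6.99 and 2.58 points (adjusted p = 0.324, 0.34 and 0.558), and the calls passed in 1, 0 and 1 of the 8 fits that leave out a library. The median of the 3 regions in each library ran from 5.83 to 34.3 with Ppara and from 57.9 to 89.5 without. In the single region at 119597619 the groups overlapped. There the second double knockout library was at 20.4 and the first WT library at 34.3. Near Pik3r1, 3 of 6 regions were called lower, 147912 to 306586 bp from the gene. Ranked by fold, none of the 3 passed (limma adjusted p = 0.257, 0.0611 and 0.0527). The one at 101524178 was at 35.0, 41.8, 40.7 and 49.8 in Ppara-intact and 1.31, 2.66, 19.6 and 5.39 in Ppara-null libraries.

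Near Myc, 2 of 10 regions were called higher, 53389 and 510547 bp away. The nearer one was at 2.22, 0.351, 7.73 and 11.2 against 28.7, 44.6, 24.4 and 44.2. The 2 regions called lower near Zmiz1 were lowest in the Ppara -/- libraries: the first was at 91.3 to 95.2 in Ppara-intact, 31.0 and 52.0 in Ppara -/- and 97.7 and 97.2 in Cpt2 L-/- ; Ppara -/- libraries. Nectin1, an adhesion molecule, had 2 lower calls of 7. In the one at 43636398 only the Ppara -/- libraries were low, at 65.7 and 56.3. The double knockout libraries, at 97.6 and 94.0, lay within the 88.0 to 98.7 of the Ppara-intact ones. Cdh26, Creb3l2 (an endoplasmic reticulum stress transcription factor), Olfr161, Tcte2, Gm52481, Sfi1 and Vmn1r2 had 2 higher calls each. Ranked by fold, the calls near Myc, Zmiz1 and Nectin1 did not pass (limma adjusted p from 0.0732 to 0.258). None of the 14 higher calls near the last 7 genes passed either. The fold-rank changes were 0.12 and 1.09 points near Olfr161, 3.51 and 0.06 near Vmn1r2, 8.46 and 6.86 near Gm52481 and 3.06 and 30.4 near Sfi1. They were 35.5 and 31.7 near Cdh26, 35.3 and 32.3 near Creb3l2 and 43.0 and 48.6 near Tcte2.

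Where the region is also a transcript start, the called share was lower. Of the 438 regions with a promoter window 7 (1.60%) were called higher and 5 (1.14%) lower, against 172 (4.48%) and 67 (1.74%) of the 3842 without; the difference was not tested. The region with the Fam222b start was at 61.1, 42.5, 64.6 and 14.6 in Ppara-intact and 94.6, 90.2, 92.3 and 88.9 in Ppara-null libraries (45.8 ± 10.7 points). That of Gm31623, a lncRNA near the DNA methyltransferase gene Dnmt3a, was at 8.37, 3.22, 7.47 and 24.8 against 66.2, 40.3, 65.6 and 68.6. The region with the Rbm47 start, which encodes an RNA-binding protein, was at 70.4, 79.6, 83.5 and 86.2 against 27.7, 31.3, 61.1 and 28.2 (−42.9 ± 10.5 points). With each library left out in turn, the calls of Fam222b, Gm31623 and Rbm47 passed in 2, 3 and 0 of 8 fits. In contrast the starts of Chaserr, the lncRNA beside Chd2, and of Gm30117 stayed within 90.1 to 98.7 and within 94.4 to 98.9 in all 8 libraries.

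Of the 16 regions near a miRNA hairpin, 3 were called higher and none lower, beside 4.18% higher and 1.68% lower of all 4280. With counts this small, these 16 are not read as differing from all regions. The 3 lay beside Mir6917 (inside Erbb3, a receptor tyrosine kinase, 58.9 ± 8.84 points), Mir6372 (36.5 ± 6.21) and Mir7671 (near the interferon regulatory factor Irf1, 35.8 ± 8.32). Ranked by fold, their changes were 40.9, 12.1 and 25.5 points (limma adjusted p = 0.0471, 0.0611 and 0.0527). The region 1921 bp from Mir22 was at 89.8, 63.8, 72.5 and 77.1 in Ppara-intact and 25.1, 8.71, 56.3 and 43.5 in Ppara-null libraries. These groups did not overlap, but the change of −42.4 ± 10.8 points did not pass (adjusted p = 0.0541). The region beside the Mir17 cluster, at 12.2, 17.9, 6.38 and 23.2 against 4.38, 28.0, 9.82 and 6.53, overlapped between the groups, and that of Mir148a was at 8.19 to 24.9 against 1.35 to 18.3.

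The remaining comparisons concern Cpt2 status and whether the effect of Cpt2 loss differed by Ppara status. By limma 0 of the 4280 distal regions passed in either, as did 0 of all 11258 (0%); at an unadjusted p under 0.05 there were 568 by Cpt2 status and 408 for the interaction. Ranked by fold the counts were also 0, with 473 and 430 unadjusted. Percentiles of Cpt2-null and Cpt2-intact libraries did not overlap in 126 distal regions that were higher (2.94%, against 1.49% of all 11258) and 29 that were lower (0.678%, against 1.55%). For the interaction sides, WT and double knockout against the single knockouts, there were 71 higher (1.66%, against 1.31%) and 43 lower (1.00%, against 1.22%). The median change by Cpt2 status was 4.49 points over the distal regions and −0.61 over all 11258. Without the first Ppara -/- library the counts were 57 by Cpt2 status and 71 for the interaction, and without the second 16 and 16.

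**Figure D5:**
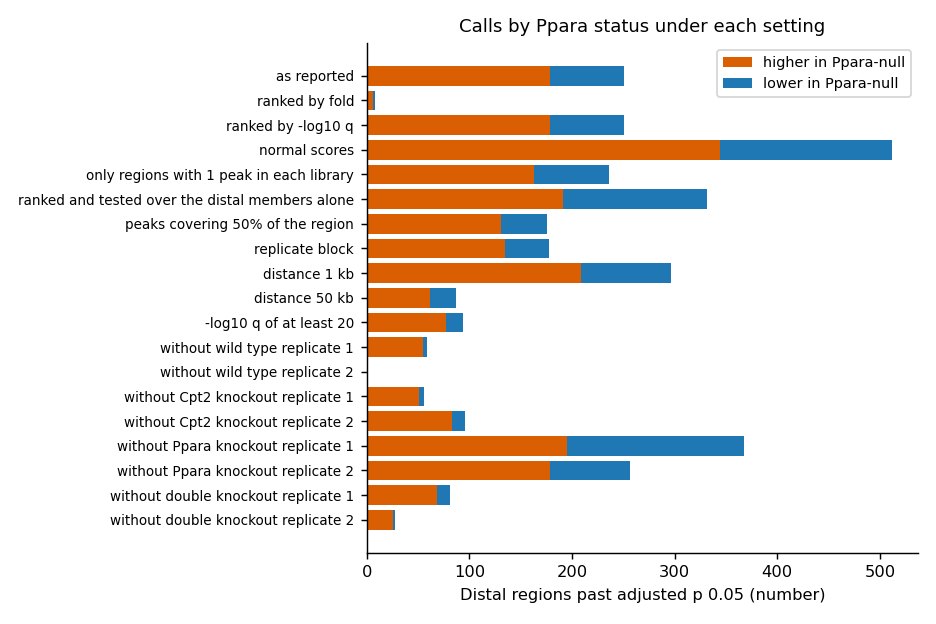
Number of distal regions past an adjusted p of 0.05 by Ppara status, higher (orange) and lower (blue) in Ppara-null libraries, as reported (top bar, 179 and 72) and under each alternative. The bars run from 0 without the second wild type library to 512 with normal scores in place of percentiles.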

How the data were processed

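Peaks were called per library with MACS2 2.1.0 on mm10 after alignment with BWA, per the submitters' processing notes; read depth, duplicate handling and the treatment of reads that fit several places are not given in the sources used here, so depth is unknown. Each deposited peak list gives position, score, fold (a ratio over background), −log10 p, −log10 q and summit; the −log10 p ranked the regions, the deposited ratio and −log10 q served as alternatives, and the score was not used. The authors' consensus table gives positions only.

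A region's strongest peak by −log10 p gave its value in a library, and its mid-rank percentile among the 11258 regions called in all 8 libraries was tested with limma 3.58.1 in R 4.3.3 (4 genotype means, trend, no covariate), with Benjamini-Hochberg adjustment over all 11258 at 0.05. Contrasts were Ppara status and Cpt2 status, each as null minus intact, and their interaction, the change by Cpt2 loss in Ppara-null minus that in Ppara-intact libraries. The fit was tested on simulated data with a common spread, in which 200 of 11258 regions changed by Ppara status. At a median shift of 25.4 points it recovered 0 of the 200, and at 47.1 points 154. A count of 0 calls therefore does not show that no region changed. Other steps used Python 3.11.15, NumPy 2.4.6, pandas 2.3.3, SciPy 1.17.1 and matplotlib 3.10.9.

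Gene ends (21900 coding genes) and sequences came from RefSeq on GRCm38.p6. Named regions are the 8 largest rises and falls by Ppara status past the threshold, the extremes of level, width, distance, summit range and clustering, and the most changed region of each gene list; some regions that meet this rule are not reported here, and further regions were named after their values were seen. Members, lists and motifs were chosen with earlier results of these data known. The motif search had been planned for the regions and was made in promoter windows instead, since no genome was used.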

Additional observations from a re-analysis of the deposited data

How the results depend on the processing

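Calls by Ppara status (251 as reported) kept both directions under each alternative that gave any call, and their number moved with the score and the libraries. It was 8 (6 higher and 2 lower, 7 shared with the reported calls) when ranked by fold, 512 with normal scores, 87 at a distance of 50 kb (1211 regions) and 94 with −log10 q held to 20 or more (1373 regions). Without each replicate in turn it ran from 0 (without the second WT library, 848 at an unadjusted p under 0.05) to 368 (without the first Ppara -/- library), with 59 without the first WT library, 56 and 96 without the first and second Cpt2 L-/- library, and 81 and 28 without the first and second Cpt2 L-/- ; Ppara -/- library; a genotype left with 1 library was assumed to vary like the others. Over the same fits, calls by Cpt2 status ran from 0 to 57 and for the interaction from 0 to 71, and they were 0 under every other alternative run. Ranking by −log10 q, regions with 1 peak in each library, the 4280 regions alone, 50% cover and a distance of 1 kb kept the count within 1.5 times (251, 236, 332, 176 and 296). With the replicate number as a block it was 178 (135 higher and 43 lower), 175 of them among the reported calls. Those that did not pass with it include the regions of Bhlhe40, Foxo1, Irf1 and Rbm47 (limma adjusted p 0.0544, 0.0508, 0.057 and 0.0642). Deviations of same-numbered libraries correlated at −0.0364 to 0.0784 over 6 pairs of genotypes. These values cannot show whether the numbers pair the libraries, since ranking removes shifts common to all regions. The labels do not say either.

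The number of members was 2993 at 50% cover, 5399 at 1 kb, 3362 with lists of equal number and 4286 to 5306 without each library in turn. Groups of 3 or more regions numbered 8 at a gap of 5 kb and 108 at 25 kb. The difference in median percentile by Cpt2 status (6.61) was 5.36 by fold, and 5.35 to 8.70 over all alternatives, which were chosen after seeing the data; the 4 libraries of each group overlapped at a distance of 50 kb and with −log10 q held to 20 or more. The causes of these differences were not tested. Lists give no read counts, so the precision of a single peak's score is unknown, and regions absent from 1 or more libraries are outside the ranking.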
